A study of Rattus norvegicus with 24 samples.

Results

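Isyna1 and Sord encode enzymes of organic osmolyte metabolism, and this account follows both genes across the diet and strain comparisons of the series. They are the genes whose symbol in the platform annotation is Isyna1 or Sord. They are 2 of 1313 named genes with a value. The array carries 4 probe IDs for them out of 3502, and 2 of these hold values, probe 2289 for Isyna1 and probe 1885 for Sord. Both probes have a value on all 24 arrays.

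Cells of the renal medulla live in fluid of very high salt and urea content and balance it with small organic molecules, among them sorbitol, myo-inositol, betaine, taurine and glycerophosphocholine. Isyna1, inositol-3-phosphate synthase, converts glucose 6-phosphate to inositol 3-phosphate, the first step of myo-inositol synthesis. Akr1b1, aldose reductase, makes sorbitol from glucose, and Sord, sorbitol dehydrogenase, oxidises sorbitol to fructose. Of the 2 genes, Isyna1 thus makes an osmolyte and Sord removes one. The transcription factor Nfat5 drives osmolyte genes through tonicity elements whose core is TGGAAA.

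The study hybridised total RNA of rat kidney to two-colour cDNA arrays after 2 weeks on low salt (LS) or high salt (HS). The groups are salt-sensitive SS rats and strain 13, which the labels do not describe further. It is taken here to be the SS line that carries chromosome 13 of another strain, so that both strains share the other SS chromosomes. The title of the series names the renal medulla and the sample labels the kidney. The 4 comparisons are HS over LS in strain 13, HS over LS in SS, strain 13 over SS on LS and strain 13 over SS on HS, each with 3 replicates of 2 arrays with the dyes exchanged (a forward and a dye-swap array). Nothing in the labels says that replicates came from separate animals, nor gives age or sex, so the p-values reflect the spread of these samples alone, and that spread may be technical.

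Each value is a deposited log ratio of the 2 channels, whose log base is not stated, so no fold is given. Arrays held between 726 and 1402 values, and the array with 726, a forward array of the strain comparison on LS, stood apart. The strain is missing from the titles of 5 of the 6 SS diet arrays, and the dye-swap array of SS replicate 3 carries a title that begins as a strain 13 title does, although both its channel names say SS. That ratios are HS over LS and strain 13 over SS is the likely direction, not a certain one, since all signs could be turned at once. With the signs as labelled, the diet change of strain 13 minus that of SS correlated across 1294 probes at r = 0.503 with the change of the strain ratio from LS to HS, against 0.179 and -0.137 with a diet or a strain comparison turned (genes are not independent replicates). The 4 comparisons share RNA at least in part. By the channel names the SS RNA of replicate 3 lies on both diet and strain arrays, so the comparisons are not independent of each other. The ratios give no level of a gene in any RNA.

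For each gene the sequence before 1 start, from RefSeq on build GRCr8, is shown so that the 2 can be set side by side. For both genes this start lies inside the annotated extent of the gene, not at its outer end. The windows span the 250 bases before the start, chr16:18875956-18876205 on the minus strand for Isyna1 and chr3:129638418-129638667 on the plus strand for Sord. Capitals mark CCAAT (reverse ATTGG) and the GC box GGGCGG (reverse CCGCCC), both searched on both strands and not overlapping each other. For Isyna1 the 89 bases that lie outside the annotated extent of the gene are printed (chr16:18876117-18876205). The window of Sord lies wholly inside the extent of its gene, and only short stretches around its GC boxes are printed (chr3:129638608-129638637 and chr3:129638642-129638667).
Isyna1 upstream: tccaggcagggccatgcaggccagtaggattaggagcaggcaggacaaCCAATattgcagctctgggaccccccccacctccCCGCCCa
Sord first box: agcgcacaggccCCGCCCcgggcccgcgct
Sord second box: cgtcttcaggctCCGCCCctgcccct

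The Isyna1 window held 1 CCAAT on each strand, 202 and 126 bases before the start used, and 1 GC box at 168 bases. The CCAAT at 126 bases lies inside the annotated extent of the gene and is not printed. The Sord window held 0 CCAAT and 2 GC boxes, at 48 and 14 bases. Of 33469 windows of this length, 34.0% held CCAAT and 30.5% the GC box on either strand. The tonicity core TGGAAA (reverse TTTCCA) was in neither window, and 19.7% of all windows held it. The GC content was 64.0% for Isyna1 and 65.2% for Sord, against a median of 51.2%. These are letter matches only, and no reading of binding follows from them.

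On HS, Isyna1 was lower in SS rats. The forward and dye-swap log ratios were -0.12 and -1.03 in replicate 1, -0.17 and -0.38 in replicate 2, and -0.31 and -0.72 in replicate 3. All 6 arrays lay below 0, and replicate 1 had both the value nearest 0 and the lowest. The replicate means were -0.575, -0.275 and -0.515, which gave a log ratio of -0.455 ± 0.159 (SD, n = 3). Isyna1 fell in this comparison (limma adjusted p = 0.0148 over 1310 probes, 95% interval -0.64 to -0.27). In all, 37 of the 1310 probes (2.82%) were called in SS, and 20 probes had a lower log ratio than Isyna1. The call was lost with any replicate left out. The log ratios were -0.395, -0.545 and -0.425 with adjusted p of 0.0509, 0.0886 and 0.113 without replicates 1, 2 and 3 (limma), and an adjusted p of 0.233 when the 3 values were fitted alone. Without the array of conflicting label the log ratio was -0.39 (limma adjusted p = 0.0323). In the same comparison 4 of 8 fibroblast and matrix markers and 2 of 3 smooth and skeletal muscle markers rose, and their part in the Isyna1 value was not tested. These marker calls too were lost without replicate 2, without replicate 3 and with SS fitted alone, where 0 probes were called.

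In strain 13 the same diet comparison gave Isyna1 values close to 0. Replicate 1 had 0.17 and -0.46 on its forward and dye-swap arrays, replicate 2 had 0.10 and -0.10, and replicate 3 had -0.10 and -0.22. The arrays fell on both sides of 0, with 2 above and 4 below. The log ratio was -0.10 ± 0.09 (SD, n = 3) and did not pass (limma adjusted p = 0.734, 95% interval -0.29 to 0.08). No probe of 1287 was called in this comparison (0%), with 119 at an unadjusted p below 0.05 and a lowest adjusted p of 0.324. On forward arrays alone the Isyna1 log ratio was 0.06, the opposite sign.

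Between the strains on LS, Isyna1 gave no clear difference. The forward arrays had 0.13, 0.08 and 0.26 and the dye-swap arrays 0.00, -0.37 and -0.20 in replicates 1 to 3. No forward array lay below 0 and no dye-swap array above it. The log ratio of 13 over SS was -0.02 ± 0.11 (SD, n = 3; limma adjusted p = 0.92, 95% interval -0.20 to 0.17), with 0 of 1229 probes called (0%) and 268 at an unadjusted p below 0.05. Without replicate 2 it was 0.05, and without the array of 726 values -0.04.

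On HS, Isyna1 had higher values in strain 13 than in SS, but the difference did not pass the test. The log ratios on the forward and dye-swap arrays were 0.55 and 0.23 in replicate 1, 0.25 and -0.14 in replicate 2, and 0.57 and 0.10 in replicate 3. Of the 6 arrays 5 lay above 0, and the dye-swap array of replicate 2 below. The log ratio was 0.26 ± 0.18 (SD, n = 3; limma adjusted p = 0.098, 95% interval 0.08 to 0.44), in a comparison with 81 of 1350 probes called (6%), or 44 with the replicate number as a block (Isyna1 limma adjusted p = 0.149). Of the probes tested, 92.2% had a lower log ratio. In the same comparison 3 of 4 collecting duct markers rose, and their part in the Isyna1 value was not tested. Among the 548 probes with a value on every array, the same Isyna1 log ratio had a limma adjusted p of 0.0362. Without replicates 1, 2 and 3 the limma adjusted p was 0.475, 0.0653 and 0.287, and with the comparison fitted alone 0.183. By replicate, Isyna1 was 0.39 and 0.055 in replicates 1 and 2, whose titles share a text, and 0.335 in replicate 3, whose text is that of replicate 3 on LS.

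The diet change of Isyna1 in strain 13 minus that in SS was 0.43, 0.275 and 0.355 on the diet arrays of replicates 1 to 3. The strain arrays give the same quantity as the change of the strain ratio from LS to HS, at 0.325, 0.20 and 0.305. All 6 estimates were above 0, but where RNA is shared the estimates of a replicate are repeat measures of the same quantity. In replicate 3 the LS and HS strain arrays share a text in their titles. In the other replicates these texts differ between LS and HS, so the strain-array estimates there cannot be told apart from a difference between texts. The mean over the replicates was 0.315 ± 0.071 (SD, n = 3), which did not pass (limma adjusted p = 0.0909, 95% interval 0.13 to 0.50). Of 1164 probes 5 (0.43%) were called for this difference, and Isyna1 was number 38 by p. With the replicate number as a block 8 were called, and Isyna1 had a limma adjusted p of 0.155. Over the 548 probes with a value on every array its limma adjusted p was 0.0249. Without replicates 1, 2 and 3 the limma adjusted p was 0.23, 0.22 and 0.385. It was 0.332 with diet arrays only and 0.523 with strain arrays only. The difference was 0.28 without the array of conflicting label (limma adjusted p = 0.121) and 0.33 without the array of 726 values (limma adjusted p = 0.0832). By the channel names both sets of arrays hold the SS RNA of replicate 3, and they may share the other RNAs. The fit treats the sets as independent.

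**Figure D1:**
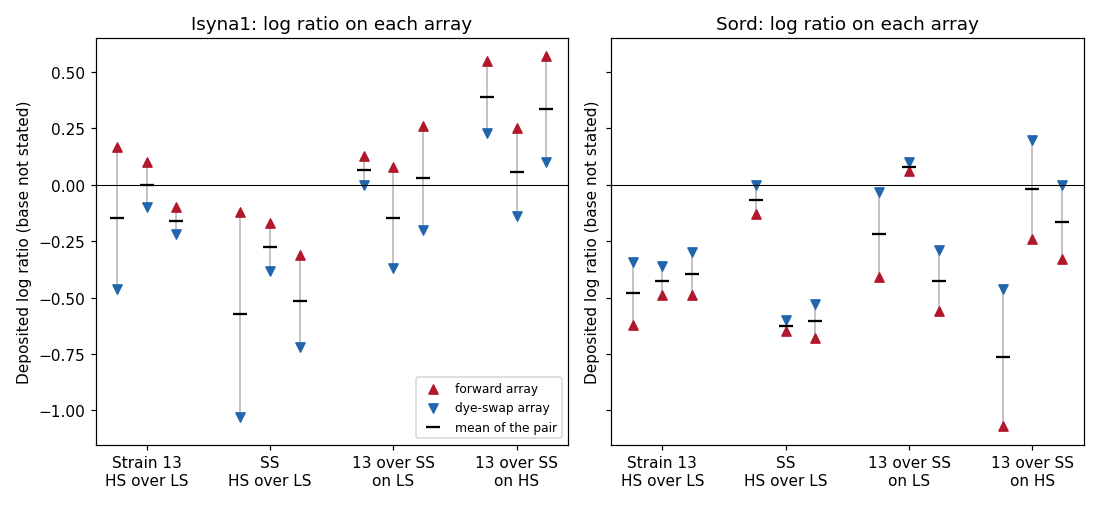
Deposited log ratios (vertical axis, base not stated) of Isyna1 (left) and Sord (right) on each array, by comparison (horizontal axis) with replicates 1 to 3 from left to right. Triangles are forward and dye-swap arrays, a grey line joins the arrays of a replicate and the bar is their mean; all 6 Isyna1 arrays of the SS diet comparison lie below 0, and forward arrays lie above dye-swap arrays for Isyna1 and below them for Sord in every replicate.

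Sord had negative log ratios for HS over LS in both strains, and none of its comparisons passed the test. In strain 13 the forward and dye-swap arrays had -0.62 and -0.34 in replicate 1, -0.49 and -0.36 in replicate 2, and -0.49 and -0.30 in replicate 3. All 6 arrays lay below 0 and the replicates differed little. The log ratio was -0.43 ± 0.04 (SD, n = 3; limma adjusted p = 0.417, 95% interval -0.75 to -0.11). At an unadjusted p of 0.012 it was number 32 of 1287 probes, and 23 probes had a lower log ratio. The standard error of 0.146 joins the spread of Sord over all 4 comparisons with a spread shared by all probes, as limma does. In the ordinary per-probe test, without the shared part, it was 0.164. With strain 13 fitted alone it was 0.076 (limma adjusted p = 0.117), again joined with the spread of all probes.

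In SS, Sord replicates disagreed. Replicate 1 had -0.13 and 0.00 on its forward and dye-swap arrays, while replicate 2 had -0.65 and -0.60 and replicate 3 -0.68 and -0.53. Replicate 1 stood near 0 and above every array of strain 13, while replicates 2 and 3 lay at -0.53 or lower. The log ratio was -0.43 ± 0.32 (SD, n = 3; limma adjusted p = 0.138, 95% interval -0.75 to -0.11). Without replicate 1 it was -0.615 (limma adjusted p = 0.0509), and without the array of conflicting label -0.46 (limma adjusted p = 0.093).

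The strain comparisons of Sord varied more between replicates than from 0. On LS the forward and dye-swap arrays had -0.41 and -0.03 in replicate 1, 0.06 and 0.10 in replicate 2, and -0.56 and -0.29 in replicate 3. Replicate 2 alone was above 0, and the log ratio was -0.19 ± 0.25 (SD, n = 3; limma adjusted p = 0.461, 95% interval -0.51 to 0.13), or -0.125 without the array of 726 values. Leaving out a replicate moved it from -0.07 (without replicate 3) to -0.3225 (without replicate 2). On HS the arrays had -1.07 and -0.46, -0.24 and 0.20, and -0.33 and 0.00 in replicates 1 to 3. Replicate 1 was the lowest of all 12 Sord replicates at -0.765. The log ratio was -0.32 ± 0.39 (SD, n = 3; limma adjusted p = 0.219, 95% interval -0.64 to 0.002), and -0.09 without replicate 1.

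The diet change of Sord did not differ detectably between strains. By replicate the estimate over diet and strain arrays was -0.48, 0.05 and 0.235, on both sides of 0. Its mean of -0.065 ± 0.371 (SD, n = 3) had a 95% interval of -0.38 to 0.25 (limma adjusted p = 0.852). It was 0.14 without replicate 1. For the difference between strains in the diet change, Isyna1 thus had replicates that all lay above 0 and Sord had replicates of both signs.

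**Figure D2:**
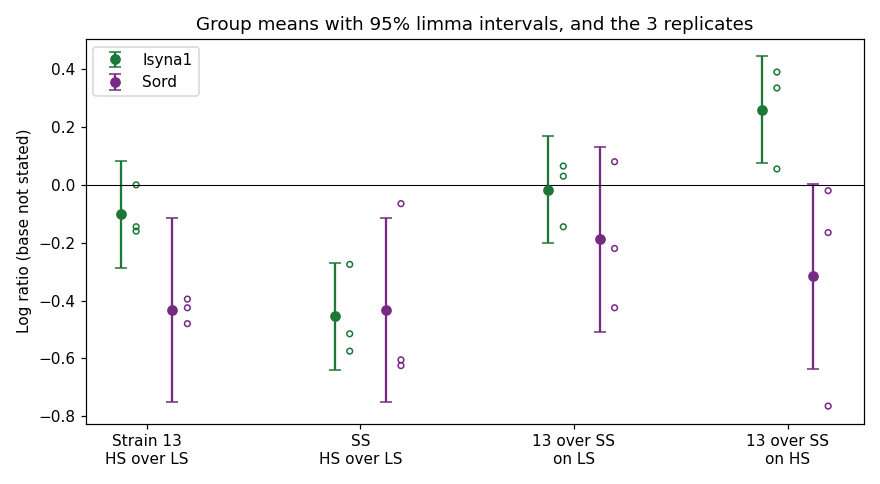
Mean log ratios (filled points, vertical axis, base not stated) of Isyna1 and Sord in the 4 comparisons, with 95% limma intervals as bars and the 3 replicate means as open circles. For Isyna1 only the SS diet mean of -0.455 passed after adjustment over all probes, and no Sord mean did.

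In order, the Isyna1 means ran from -0.455 (SS diet) over -0.10 (strain 13 diet) and -0.02 (strains on LS) to 0.26 (strains on HS). The SS diet replicates lay below all others, from -0.575 to -0.275, and the highest on LS, 0.065, passed the lowest on HS, 0.055. The Sord means ran from -0.433 (strain 13 diet) and -0.432 (SS diet) over -0.317 (HS) to -0.188 (LS). The Sord replicates of strain 13, from -0.48 to -0.395, lay within the ranges of the SS diet and HS comparisons and overlapped that on LS, -0.425 to 0.08. No neighbouring means of Sord thus differed beyond the spread. Over the 12 replicates the log ratios of Isyna1 and Sord had r = -0.07, a description of ratios of which some share RNA.

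**Figure D3:**
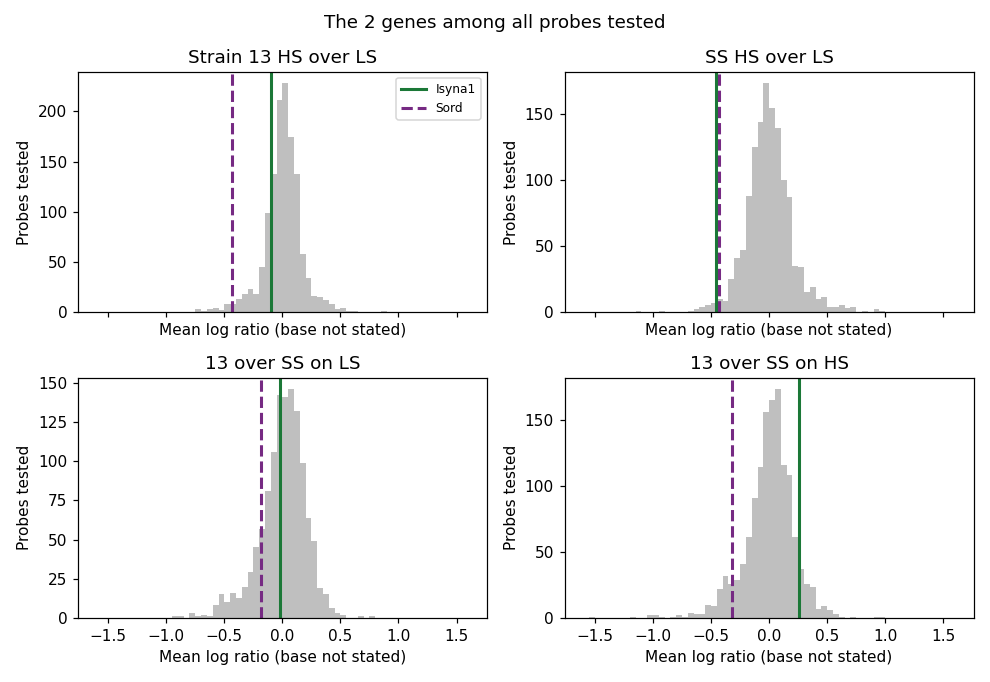
Histograms of the mean log ratio (horizontal axis, base not stated) of all probes tested in each comparison (vertical axis, number of probes), with lines at Isyna1 (solid) and Sord (dashed). Both genes lie in the lower tail in the SS diet comparison, and on opposite sides of 0 in the comparison of strains on HS.

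Both probes differed between array orientations. The forward array was above the dye-swap array in 12 of 12 replicates for Isyna1, by 0.12 to 0.91 (median 0.40). For Sord it was below in 12 of 12, by -0.61 to -0.04 (median -0.23). A gap of the same sign in all 12 replicates was found in 84 of the 548 probes with a value on every array (15.33%). The cause of the gap was not tested. The SS diet log ratio of Isyna1 was -0.20 on forward arrays (limma adjusted p = 0.206) and -0.71 on dye-swap arrays (limma adjusted p = 0.00488). On HS the strain ratio was 0.46 and 0.06 for Isyna1 and -0.55 and -0.09 for Sord in the same order.

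Beside the 2 genes, 8 of 29 listed genes of organic osmolyte handling were tested. In SS on HS 0 passed, beside 37 of all 1310 probes (2.82%). Of the 8 genes, 1 lay above 0 and 7 below (median -0.11, against -0.01 over all probes). In strain 13 and between strains on LS 0 passed, with medians of -0.05 and 0.08 (0.01 and 0.03 over all probes). No probe at all was called in these comparisons (0 of 1287 and 0 of 1229). On HS between strains 1 rose, Aqp3, a water and glycerol channel of the collecting duct, at 0.35 ± 0.07 (SD, n = 3; limma adjusted p = 0.0122), and 7 did not pass (median 0.08, against 0.02). Over all probes 81 of 1350 (6%) were called there, 49 higher and 32 lower. With replicate 1 of this comparison left out, or with it fitted alone, 0 probes were called. No call between strains on HS named in this account thus held in those fits. For the strain difference in the diet change 0 passed (median 0.08, against 0.00 over all probes), beside 5 of all 1164 probes (0.43%). With such shares over all probes, nothing particular to the list is read from these counts.

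Akr1b1, which makes the sorbitol that Sord removes, passed in no comparison. The replicate log ratios were 0.285, 0.155 and -0.055 for the diet in strain 13, and -0.31, 0.215 and -0.015 in SS. Both diet comparisons had values on either side of 0. Between strains the Akr1b1 replicate means were 0.10, 0.185 and 0.32 on LS and 0.70, 0.085 and 0.16 on HS, all above 0. Single arrays were not: on HS the dye-swap arrays had 0.51, -0.35 and -0.04. As for Isyna1, the forward array was above the dye-swap array in 12 of 12 replicates, by 0.01 to 0.87. The group means were 0.20 ± 0.11 on LS (limma adjusted p = 0.35) and 0.32 ± 0.34 on HS (limma adjusted p = 0.157; SD, n = 3 for both). Where strain 13 was compared with SS on HS, the mean log ratio was therefore above 0 for Akr1b1 and Isyna1 and below 0 for Sord, with none of the 3 past the threshold.

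Impa1, inositol monophosphatase, frees inositol from the product of Isyna1. It had a log ratio of -0.11 ± 0.06 for HS over LS in SS (limma adjusted p = 0.365) and -0.07 ± 0.08 in strain 13 (limma adjusted p = 0.77). Between strains it was 0.09 ± 0.07 on LS and 0.10 ± 0.08 on HS (n = 3 throughout). Its SS replicates of -0.035, -0.145 and -0.14 were all below 0. Csad and Cdo1, enzymes of taurine synthesis, had -0.36 ± 0.34 and -0.27 ± 0.23 in SS (limma adjusted p = 0.241 and 0.233). For both, replicate 1 was near 0, at 0.005 and -0.01, and replicates 2 and 3 lay between -0.665 and -0.365. Sord too had its replicate nearest 0 in replicate 1. Bhmt, which consumes betaine, had -0.055 ± 0.141 in SS and 0.14 ± 0.12 between strains on HS. Sgk1, a kinase induced by hypertonicity, had -0.21 ± 0.03 in SS (limma adjusted p = 0.309), and Aqp1, a water channel, 0.02 ± 0.07.

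The inositol phosphate list had 12 to 15 of 54 genes tested. No gene passed in the diet comparisons or on LS. Over all probes the calls there were 0 of 1287 in strain 13, 37 of 1310 (2.82%) in SS and 0 of 1229 on LS. Nothing particular to the list is read from its lack of calls. Between strains on HS 1 rose, Plcb4, a phospholipase that releases inositol trisphosphate, at 0.49 ± 0.25 (SD, n = 3; limma adjusted p = 0.0236), and 1 fell, Itpr2, a receptor for it, with -0.53 and -0.63 in the 2 replicates that had a value (limma adjusted p = 0.032). The other 13 did not pass, and the list median was 0.13 against 0.02. With 6% of all probes called in this comparison, nothing particular to the list is read from 2 calls of 15. Plcb4 had -0.215 ± 0.022 for HS over LS in SS (limma adjusted p = 0.242). Cdipt, which joins inositol to a lipid, had 0.30 ± 0.26 between strains on LS (limma adjusted p = 0.116).

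The hexose and fructose list, with the pathways that make glucose 6-phosphate and use fructose, had 17 or 18 of 55 genes tested. No gene passed in the diet comparisons or on LS. Of all probes 0% were called in strain 13, 2.82% in SS and 0% on LS, so nothing particular to the list is read from this. On HS 1 of 18 rose in strain 13, Ldhb, a lactate dehydrogenase, at 0.39 ± 0.13 (limma adjusted p = 0.0177), and 1 fell, Slc2a2, a glucose transporter of the proximal tubule, at -0.37 ± 0.13 (SD, n = 3 for both; limma adjusted p = 0.0319). The other 16 did not pass, and 2 calls of 18 stand beside the same 6% of all probes. Among those 16 was Hk1, the hexokinase that forms glucose 6-phosphate, at 0.30 ± 0.19 (limma adjusted p = 0.0633). Khk, ketohexokinase, which phosphorylates fructose, had -0.14, -0.245 and -0.80 for the diet in strain 13, all below 0 (limma adjusted p = 0.591).

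Among 860 other named probes with a value in all 12 replicates, the log ratios most like those of Isyna1 were Slc2a1, a glucose transporter (r = 0.942), Pcsk6 (0.93), Nxf1 (0.917), Nupr1 (0.907) and Ces2c (0.893). Slc2a1 had means of -0.02, -0.14, 0.09 and 0.22 in the order strain 13 diet, SS diet, LS and HS, where Isyna1 had -0.10, -0.455, -0.02 and 0.26. The least like were Ctsl (r = -0.917), Rpsa (-0.865) and Tsc22d1 (-0.864). For Sord the most like were Ggh (r = 0.934), Upb1, an enzyme of pyrimidine breakdown (0.924), Cabp1 (0.888), Agt, angiotensinogen (0.865), and Rab29 (0.864). The least like were Atp5f1d (-0.956), Pdgfra (-0.889) and C1s (-0.861). Each of the 12 points has its own pair of arrays, but some share RNA, so these values are descriptions without a test.

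The proximal tubule lies in cortex and outer medulla, and of its 22 markers 9 had a value in all 12 replicates. Their mean by replicate was 0.25, -0.32 and -0.29 for the diet in SS, -0.21, -0.34 and -0.39 in strain 13, -0.40, -0.14 and -0.485 between strains on LS and -0.81, -0.12 and -0.45 on HS. In SS the replicate nearest 0 for Sord was the only one with a marker mean above 0. In both strain comparisons the Sord replicate nearest 0 or above it was the one with the highest marker mean. In strain 13 the order was the opposite, and the Sord replicate nearest 0, -0.395, had the lowest marker mean. Over the 12 replicates r was 0.635 with Sord and -0.738 with Isyna1. Between strains on HS 2 of 9 proximal tubule markers fell, 0 rose, and 9 were below 0, where 81 of all 1350 probes (6%) were called, 32 of them lower.

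Of 10 collecting duct markers 4 had a value in all 12 replicates, with means from -0.124 to -0.079 for the diet in SS, -0.026 to 0.056 in strain 13, 0.21 to 0.279 between strains on LS and 0.314 to 0.439 on HS. Between strains on HS 3 of these 4 rose, where 49 of the 1350 probes rose. Aqp3 is among them and is the same call as that named in the osmolyte list. Their mean had r = 0.867 with Isyna1 and 0.243 with Sord. The mean of 4 of 9 thick limb and distal tubule markers, from -0.174 to -0.102 in SS and 0.159 to 0.21 between strains on HS, had r = 0.835 with Isyna1 and 0.072 with Sord. The 6 of 9 fibroblast and matrix markers had means of 0.288 to 0.736 in SS, and r was -0.711 with Isyna1 and -0.491 with Sord. The 3 of 8 smooth and skeletal muscle markers had means of 0.245 to 0.577 in SS and -0.40 to -0.222 between strains on HS. The part of tissue composition in the values of Isyna1 and Sord was not tested, and in bulk tissue fewer cells of a type and less RNA per cell cannot be told apart.

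**Figure D4:**
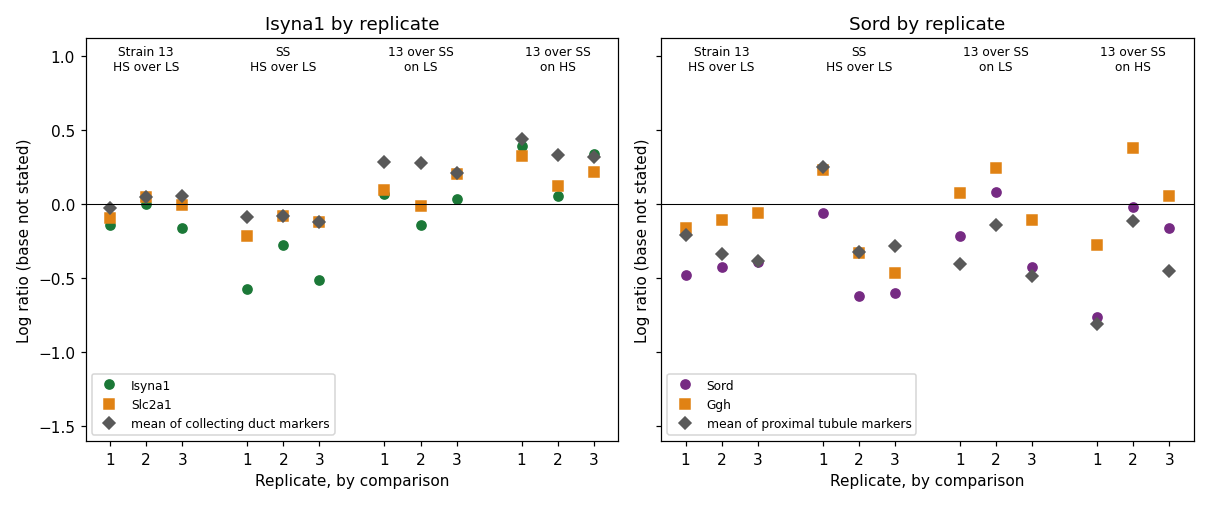
Log ratios (vertical axis, base not stated) in replicates 1 to 3 of each comparison (horizontal axis). Left, Isyna1 with the probe most like it, Slc2a1, and the mean of 4 collecting duct markers; right, Sord with the probe most like it, Ggh, and the mean of 9 proximal tubule markers. In the SS diet comparison Sord replicate 1 at -0.065 stands above replicates 2 and 3, as do Ggh and the marker mean.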

How the data were processed

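Per the labels, total RNA of rat kidney was labelled with cy5 and cy3 and hybridised in pairs to 24 two-colour arrays. The authors deposited log ratios; how background, filtering and normalization were handled, and the log base, is not stated in the labels or the file. No fold was therefore computed. Array means lay within 0.0049 and array medians within 0.04 of 0, and no further scaling was applied. Channel intensities were not used, and precision is limited by the number of arrays.

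Of the 1561 probes with values, 1311 had 1 symbol updated by gene identifier through RefSeq (GRCr8), 5 a platform symbol only, 22 several and 223 none. Forward and dye-swap arrays of a replicate were averaged. The titles number the replicates, except for 1 array of strain 13. Same-numbered replicates of the 2 diet comparisons deviated together (r of 0.208, 0.154 and 0.25 over 1006 probes), and a fit with the replicate block was an alternative. Over 548 probes, the median correlation between comparisons was 0.514 for forward minus dye-swap values and 0.282 for forward plus dye-swap values, so the deposited values were taken as already turned to one direction.

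The 12 replicates were fitted with 4 group means (lmFit, then eBayes) in limma 3.58.1 under R 4.3.3. The fit was run on simulated data whose replicates were independent, so that test does not cover RNA shared between comparisons. A probe was tested with at least 2 replicates, against 0, two-sided, with Benjamini-Hochberg adjustment over all probes and a threshold of 0.05. The strain difference in the diet change averaged an estimate from diet arrays and another from strain arrays. The members and lists were chosen with earlier results of these data known. Named beside the members were all tested genes of the osmolyte list, and genes past the threshold or among the 3 lowest p of the other lists, described in part. Likeness was Pearson's r over the 12 replicates, with the 5 highest and 3 lowest named.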

Additional observations from a re-analysis of the deposited data

How the results depend on the processing

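Both the counts of called probes and the values of the 2 genes moved with the processing. Over all alternatives Isyna1 lay between -0.71 and -0.20 in SS and between 0.06 and 0.46 on HS. With a single dye orientation, which carries the gap between orientations, forward arrays called 15 (strain 13 diet), 118 (SS diet), 70 (strains on LS), 127 (strains on HS) and 13 (strain difference in the diet change), and dye-swap arrays 3, 62, 51, 411 and 12. On forward arrays Isyna1 turned to 0.0567 in the strain 13 diet and 0.1567 on LS, was -0.20 in SS without passing, and passed on HS at 0.46, as did Sord at -0.55. On dye-swap arrays the Sord difference between strains was 0.015. Probes with a value on all arrays gave 64 calls in SS, 69 on LS and 47 for the difference, and Isyna1 then passed on HS (0.26) and for the difference (0.315). Scaling arrays to equal spread called 23 on LS, 13 on HS and 0 for the difference. Fitted alone, SS and HS each called 0, and Isyna1 in SS (-0.455) did not pass. The ordinary per-probe test called 26 on LS and 50 on HS. Without the array of conflicting label 60 were called in SS and 12 for the difference; without the array of 726 values, chosen after seeing the data, 2 for the difference; with diet or strain arrays only, 0. Except where stated, the cause was not tested.

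Leaving out each replicate gave 0 to 57 calls in SS, 0 to 1 on LS, 0 to 19 on HS and 0 to 10 for the difference. Isyna1 ran from -0.545 to -0.395 in SS and from -0.0575 to 0.0475 on LS, and the Sord difference from -0.215 to 0.1425. With the replicate block 44 were called on HS and 8 for the difference, and no call of Isyna1 or Sord changed. Beyond the diet comparisons, deviations of the same number correlated from -0.665 to -0.29 between the SS diet and the strains on HS, and with mixed signs in the other 4 pairs of comparisons, from -0.323 to 0.43. Isyna1 in SS kept its direction under all 14 alternatives and its call under 9. Sord stayed below 0 under every alternative of the diet and strain comparisons.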
